A study of Mus musculus with 2 samples.

Results

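The Dlk1-Dio3 domain of mouse chromosome 12 carries a long series of microRNA (miRNA) genes, and its miRNAs were examined here in the heart of old mice. Members were all miRNA genes of the count tables that the GENCODE M21 annotation places on the plus strand of chromosome 12 with a start in a window that opens just before Dlk1 (109452823 to 109463336) and closes after Mirg (109729764 to 109749460; mouse build mm10). This rule, which uses position and no measured value, found 59 of 2202 genes. The nearest miRNA genes outside were Gm25297, 223.5 kb before the first member with no read in either library, and Mir1247, 530.1 kb after the last member with 13 and 14 reads in replicates 1 and 2. Both lie on the minus strand.

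The 2 libraries came from heart tissue of male mice of the hybrid strain B6CASTF1/J, aged 18 to 20 months, and form 1 group with no treatment and no comparison of conditions. The labels number them as biological replicates 1 and 2 but give them the same donor record, so differences between these libraries may be technical. P-values compare these 2 libraries only. Those of the exact binomial test allow for counting error and not for spread between libraries. Reads in miRNA genes numbered 3037063 in replicate 1 and 5284446 in replicate 2. Levels are counts per 1000000 of these reads (CPM) and are summed over both arms of a hairpin, without scaling for hairpin length (61 to 124 bases). In each library 3 reads, which a count of 0 allows, correspond to 0.988 and 0.568 CPM, and intervals and floors cover counting error only. The heart muscle miRNAs Mir208a and Mir499 had 5184 and 5559 CPM in replicate 1 and 9154 and 5487 CPM in replicate 2. The other 4 genes of the heart muscle list, Mir1a-1, Mir1a-2, Mir133a-1 and Mir133a-2, had 2.63 to 27.7 CPM and 3.79 to 26.7 CPM, but each shares an exact stretch of 22 bases with another hairpin, and reads with more than 1 place in the genome are not in the gene counts.

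MicroRNAs are cut from hairpins in longer transcripts and repress messenger RNAs that pair with their seed, the bases 2 to 8 of the mature strand. The Dlk1-Dio3 domain is imprinted: the paternal chromosome expresses the protein-coding genes Dlk1, Rtl1 and Dio3, and the maternal chromosome expresses the noncoding transcripts Meg3, Rian and Mirg with the small RNAs inside them. Its miRNAs are known as abundant in embryo, placenta and adult brain and low in most other adult tissues. The counts are not split by parental allele, so imprinting itself was not measured.

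The mature sequences of the most abundant genes of the locus are shown first, because most of its reads come from them. They are from RefSeq (GRCm38.p6), which held 106 mature sequences for 57 of the 59 genes, and capitals mark the seed.
miR-127-5p: cUGAAGCUcagagggcucugau
miR-127-3p: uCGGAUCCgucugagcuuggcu
miR-411-5p: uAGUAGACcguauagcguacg
miR-411-3p: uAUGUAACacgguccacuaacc
miR-541-5p: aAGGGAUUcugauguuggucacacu
miR-541-3p: uGGCGAACacagaauccauacu
miR-379-5p: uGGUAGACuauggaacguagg
miR-379-3p: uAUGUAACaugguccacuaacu
miR-154-5p: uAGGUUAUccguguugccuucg
miR-154-3p: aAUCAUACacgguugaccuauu
Which arm of each hairpin gave the reads is not resolved in the counts. Mir379 and Mir411, neighbours on the chromosome, share the seed AUGUAAC on their 3′ arms. Of the 97 distinct seeds, 9 were shared by 2 genes of the locus and none by more, and 14 genes took part in such sharing. In miRNA genes other than the members, the seeds of 14 of the 106 sequences recurred. These include miR-299a-3p, matched by miR-299b-3p from Mir299b on the minus strand opposite Mir299a. They also include miR-1906, matched only under the same name at another gene.

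A seed of the form GGUNNNC (GGU, any 3 bases, then C) recurred along the last run of genes. The form was chosen after the sequences were seen. It was found in 14 of 71 mature sequences from Mir379 onward (19.7%), each from another gene, in 1 of 35 from the earlier members, and in 3 of 1632 from all other mouse miRNAs (0.184%). Sequences of Mir379, the most abundant gene with the form, and of genes from moderate level to nearly silent are shown side by side because the form occurs at very different levels.
miR-379-5p: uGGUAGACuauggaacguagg
miR-409-5p: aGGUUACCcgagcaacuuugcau
miR-487b-5p: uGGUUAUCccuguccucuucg
miR-299a-5p: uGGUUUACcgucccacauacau
miR-323-5p: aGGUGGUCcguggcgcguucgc
miR-494-5p: aGGUUGUCcguguugucuucuc
miR-410-5p: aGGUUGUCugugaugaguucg
miR-496a-5p: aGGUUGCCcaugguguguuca
miR-412-5p: uGGUCGACcagcuggaaaguaau
miR-758-5p: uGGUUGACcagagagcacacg
Together the 14 genes had 905 reads in replicate 1 and 1191 in replicate 2. They ranged from Mir379 with 526 and 661 reads to Mir453, which had none in either library.

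The locus as a whole was a small part of the heart miRNA pool. Its members had 6868 of the miRNA reads in replicate 1, a share of 0.226% (95% Wilson interval 0.221 to 0.231), and 8481 in replicate 2, a share of 0.160% (0.157 to 0.164). The mean share was 0.193% ± 0.0464 (SD, n = 2), and the intervals of the libraries did not overlap. The level of the locus was therefore 2261 CPM in replicate 1 and 1605 CPM in replicate 2. Inside Sfmbt2 on chromosome 2, another imprinted gene with a large miRNA cluster, 119 annotated genes together had 770 and 782 CPM, but 117 of these share an exact stretch of 22 bases with another hairpin, against 5 of the 59 at Dlk1-Dio3. Levels of genes with shared stretches can be too low. Of 6 imprinted miRNA genes elsewhere, which summed to 667 and 540 CPM, Mir335 had 594 and 471 CPM, Mir483 had 48.1 and 46.5 CPM, and Mir675 had 4 reads in replicate 1 and 0 in replicate 2. Mir296 had 43 and 25 reads, Mir298 had 28 and 95, and Mir344, which shares a 22-base stretch, had none.

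A larger share of the members than of other miRNA genes was detected. Of the 59 members, 30 (50.8%) had 10 reads or more in each library, against 291 of 2143 other genes (13.6%) and 282 of the 1117 others whose name starts with Mir (25.2%). A shared stretch of 22 bases, which can cost a gene its reads, was present in 8.47% of members and 47.9% of other genes. Among genes without one, 29 of 54 members (53.7%) and 231 of 1116 other genes (20.7%) were detected. A further 20 members had fewer reads, and 9 had none. The median mean level of the 30 detected members was 20.4 CPM, and that of the other detected genes 75.8 CPM, so the locus held many genes at low level. No test was made of these shares, since neighbours in 1 domain are not independent.

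Along the chromosome the members formed 5 runs when split at gaps over 10 kb between starts. The first and the fourth were single genes without reads, Mir1906-1 inside Meg3 and Mir882. The run from Mir770 to Mir136 (14 genes, 109563692 to 109595388) held 48.5% ± 1.94 of the reads of the locus (SD, n = 2). The run from Mir379 to Mir3072 (39 genes, 109709060 to 109747960), known as the Mir379 to Mir410 cluster, held 50.3% ± 2.51. Between them, Mir341, Mir1188, Gm23912 and Mir370 in an intron of Rian held 1.20% ± 0.574. The 2 large runs thus contributed about equally, although the later one has many more genes.

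**Figure D1:**
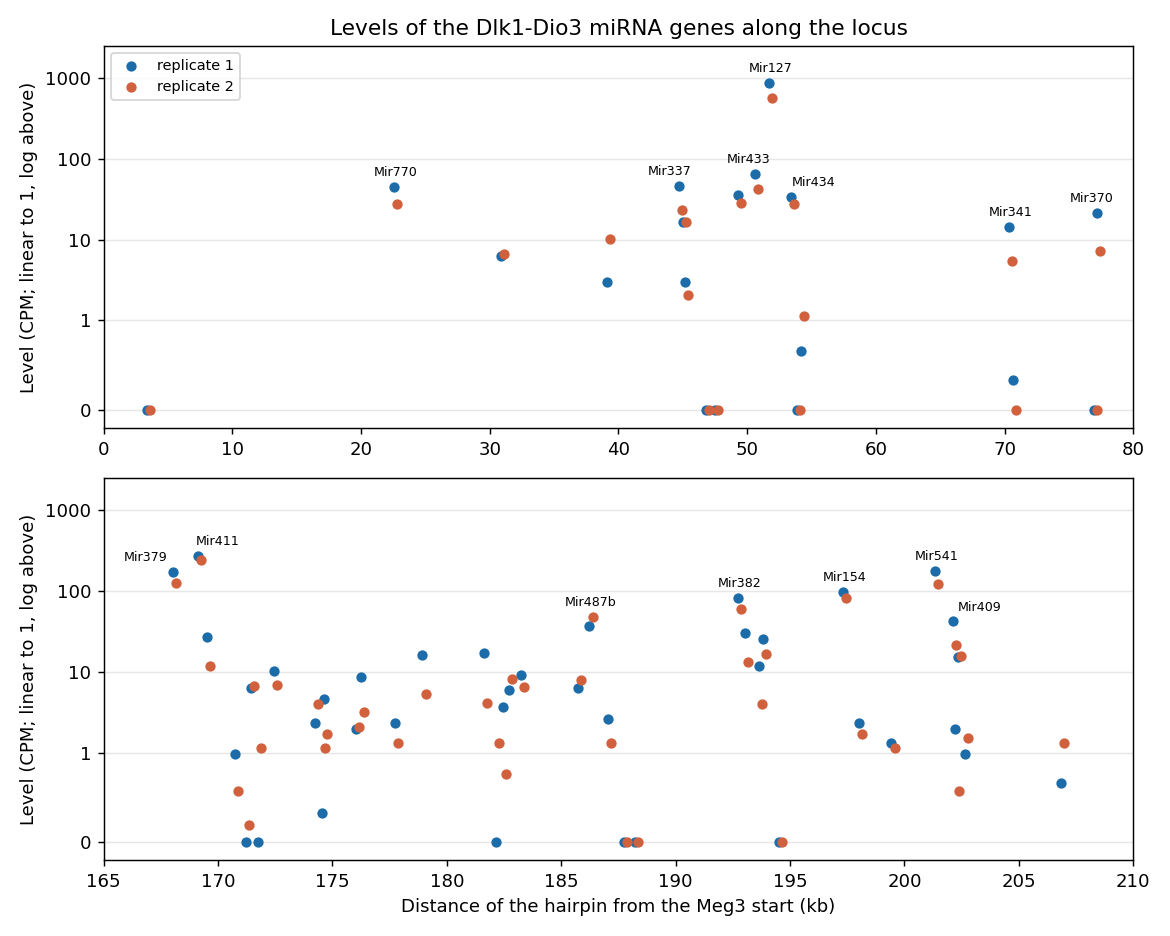
Level of each gene in CPM (vertical axis, linear to 1 and logarithmic above) against the distance of its hairpin from the start of Meg3 in kb (horizontal axis), blue for replicate 1 and red for replicate 2, with the 2 points of a gene set slightly apart sideways. Mir127 stands above all others in the upper panel, high and near-silent genes are mixed along the lower panel, and Mir882, at 141.2 kb with no read, lies between the panels.

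Mir127 led the locus. This gene (ENSMUSG00000070076.2, 109592846 to 109592915) lies opposite an exon of Rtl1, a retrotransposon-derived gene whose message its miRNA is known to repress. It had 2649 reads (872 CPM) in replicate 1 and 3018 reads (571 CPM) in replicate 2, a mean of 722 ± 213 CPM (SD, n = 2). That made it the 79th most abundant of all miRNA genes and gave it 37.1% ± 2.11 of the reads of the locus. It exceeded Mir411, the next member, 3.23-fold in replicate 1 (95% exact interval 2.99 to 3.50) and 2.34-fold in replicate 2 (2.19 to 2.50).

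Genes around Mir127 were far lower, although they lie close by on the same strand. Mir433 (109591715 to 109591838), also opposite Rtl1, had 197 and 224 reads, or 64.9 and 42.4 CPM. Mir127 exceeded it 13.4-fold in replicate 1 and 13.5-fold in replicate 2, nearly the same ratio in both libraries. Mir431, a miRNA studied in muscle stem cells, had 35.9 and 28.6 CPM, and Mir434 had 33.9 and 27.6 CPM. Mir136, the last member of the run, had 2 reads in replicate 1 and 6 in replicate 2. Mir432 had none, so 5 of the 6 members opposite Rtl1 had reads. Mir127 exceeded Mir136 1324-fold in replicate 1 (366 to 10943) and 503-fold in replicate 2 (231 to 1372).

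Before Rtl1 in the plus-strand direction, levels were moderate or low. Mir770 (109563692 to 109563785), in an exon of Meg3, had 137 and 144 reads (45.1 and 27.2 CPM). Mir337 had 141 and 123 reads (46.4 and 23.3 CPM), and Mir540 had 50 and 86. Mir673 had 19 and 35 reads, Mir493 had 9 and 53, and Mir665 had 9 and 11, each near the limit of detection in replicate 1. The near-identical copies Mir3070a and Mir3070b had no reads.

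At the start of the later run, Mir379 and Mir411 were both abundant. Mir379 (109709060 to 109709125) had 526 and 661 reads (173 and 125 CPM). Mir411 (109710175 to 109710256), with 819 and 1291 reads (270 and 244 CPM), exceeded it 1.56-fold in replicate 1 (interval 1.39 to 1.74) and 1.95-fold in replicate 2 (1.78 to 2.15). The next hairpin, Mir299a, had 83 and 63 reads, and Mir380 after it had 3 in each library. Mir379 exceeded Mir380, a close neighbour, 175-fold in replicate 1 (59.7 to 853) and 220-fold in replicate 2 (75.1 to 1071).

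The middle of this run was low in both libraries. From Mir1197 to Mir544, 21 genes lie upstream of Mirg, and only Mir487b reached 100 reads in a library. Mir487b (109727333 to 109727414) had 112 and 254 reads (36.9 and 48.1 CPM). Mir494, Mir495 and Mir539 had 7, 7 and 8 reads in replicate 1 and 21, 7 and 7 in replicate 2. Mir758 and Mir654 had 6 and 7 reads in replicate 2 and none in replicate 1, which is within the floor of that library. The 25 members of the run before Mirg held 28.8% ± 2.81 of the reads of the locus, most of them from Mir379 and Mir411.

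The Mir376 genes, known for RNA editing in brain, lie together within 1.13 kb, and their sequences are shown because they bear on counting.
miR-376c-5p: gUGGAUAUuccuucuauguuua
miR-376b-5p: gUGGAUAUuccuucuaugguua
miR-376b-3p: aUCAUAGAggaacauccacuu
miR-376a-5p: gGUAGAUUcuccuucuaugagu
miR-376a-3p: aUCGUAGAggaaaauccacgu
The hairpins of Mir376c and Mir376b share an exact stretch of 22 bases and a 5′ seed, so reads that lie within this stretch could be left out as mapped to several places. Their mature 5′ sequences differ near the 3′ end, so full-length reads of that arm can be told apart. For Mir376c only the 5′ sequence was available. Mir376c had 52 and 22 reads, Mir376b 11 and 4, and Mir376a 18 and 43. Their order differed between the libraries, with Mir376c highest in replicate 1 and Mir376a highest in replicate 2.

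Inside Mirg, a noncoding gene, hairpins with high and low levels were again mixed, without strict alternation. Its 14 members held 21.5% ± 0.299 of the reads of the locus. Mir382 (109733771 to 109733846) had 249 and 320 reads (82.0 and 60.6 CPM). Mir134, known for its role in dendritic spines of neurons, had 93 and 70 reads (30.6 and 13.2 CPM). After it, Mir668 had 36 and 21 reads, Mir485 had 78 and 88, and Mir453 had none. Mir154 (109738433 to 109738498) had 299 and 440 reads (98.5 and 83.3 CPM), and Mir541 (109742409 to 109742498) had 543 and 640 (179 and 121 CPM). Between these, Mir496a had 7 and 9 reads and Mir377 had 4 and 6. Mir541 exceeded Mir377 136-fold (52.7 to 500) and 107-fold (48.7 to 292).

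Toward the end of the run, Mir409 had 128 and 114 reads and Mir369 had 46 and 83. The others there had few reads. Mir412 had 6 and 3, and Mir410, by which the cluster is named, had 3 and 8 (0.988 and 1.51 CPM). The last member, Mir3072 (109747878 to 109747960), had 2 and 7.

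Among the 12 most abundant members, the order by level was the same in both libraries for the first 2, Mir127 and Mir411, and for Mir154 and Mir382 in the fifth and sixth place. Mir541 and Mir379 did not differ beyond counting error, with Mir541 over Mir379 at 1.03-fold (0.914 to 1.17) in replicate 1 and 0.968-fold (0.867 to 1.08) in replicate 2. From Mir433 down to Mir409, 6 members changed places between the libraries. Mir433 exceeded Mir487b 1.76-fold (1.39 to 2.24) in replicate 1 and had 0.882-fold its reads (0.734 to 1.06) in replicate 2. The 12 together held 86.5% ± 0.694 of the reads of the locus and the other 47 held 13.5% ± 0.694.

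**Figure D2:**
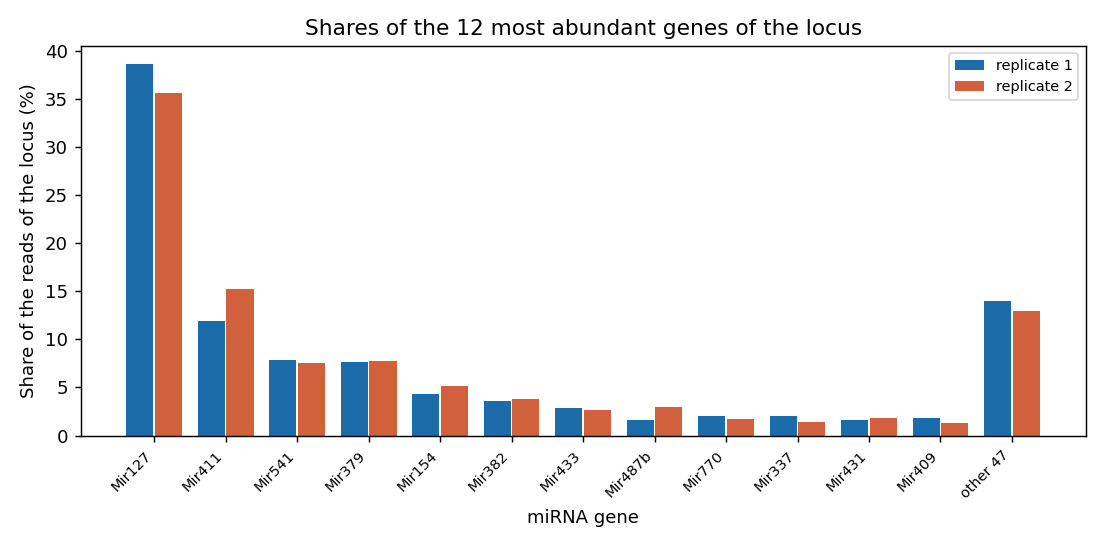
Share of all reads of the locus in percent (vertical axis, from 0) for its 12 most abundant miRNA genes and the other 47 together (horizontal axis), with a bar for each library. Mir127 took 38.6% in replicate 1 and 35.6% in replicate 2, and the 47 least abundant genes together took a mean of 13.5%.

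Members without a read were Mir1906-1, Mir3070a, Mir3070b, Mir432, Gm23912, Mir882, Gm27379, Mir544 and Mir453. Both members with a Gm name are among them. Mir1906-1 shares a 22-base stretch with Mir1906-2, and Mir3070a and Mir3070b share one with each other, so 3 of the 9 could have lost reads that mapped to several places. For the other 6, levels up to the floor of 0.988 and 0.568 CPM would not have been detectable.

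All reads counted at the members lay on the plus strand, and reads between the hairpins were not counted. On the opposite strand, 0 reads were counted at all 59 members in both libraries, including the 6 that face Rtl1, which allows up to 3 reads per gene. The Rtl1 message itself was not measured. Over all miRNA genes, 784335 and 1365219 reads were counted on the opposite strand in replicates 1 and 2. Reads ambiguous between overlapping genes in the column for either strand were nearly as many, 784246 and 1365026. The absence is therefore not read as a trait of the locus. Of the members, 7 overlap an annotated miRNA gene on the minus strand (Mir3544, Mir3071, Mir299b, Gm25750, Gm25252, Gm44322 and Gm24321), and these minus-strand genes had 0 sense reads in both libraries. The 7 members opposite them had 383 and 359 sense reads, but none in the count column for either strand. This is why the column for the sense strand was used.

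The locus was lower in replicate 2 as a whole. Its summed reads gave a log2 ratio, replicate 2 over replicate 1, of -0.49 (95% exact interval -0.54 to -0.45), that is a 1.41-fold higher level in replicate 1. This did not rest on Mir127 alone, since the other 58 members gave -0.43 (-0.48 to -0.37). The run from Mir770 to Mir136 gave -0.58 (-0.64 to -0.51) and the run from Mir379 to Mir3072 gave -0.39 (-0.46 to -0.33). The small run in Rian gave -1.51 (-1.97 to -1.06), from 110 reads in replicate 1 and 67 in replicate 2. The 14 members inside Mirg gave -0.52 (-0.62 to -0.42).

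Gene by gene, 41 members reached a sum of 10 reads over the pair of libraries and were tested. An exact two-sided binomial test with Benjamini-Hochberg adjustment over all 424 tested miRNA genes called 18 members higher in replicate 1, against 21.9% of all genes tested, and 2 higher in replicate 2, against 30.9%. As shares of the 41, these are 43.9% and 4.88%, and 21 members were not called. The test compares 2 libraries beyond counting error and no conditions. The ratio was below 0 for 31 of the 41, and its median was -0.52, beside 0.07 over all 424 genes. The members passed the read minimum on the sum of both libraries, and 18 had too few reads or none.

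With the spread between libraries taken into account, no member passed the threshold. The exact test of edgeR, given the common dispersion of this pair (a biological coefficient of variation of 40.5%), called 0 of the 41 members, against 2.83% of all genes tested. At an unadjusted p under 0.05 it found 1 member, Mir376c. The smallest adjusted p over the members was 0.564, also at Mir376c. The dispersion was estimated from the same 2 libraries that were compared, so the differences under test also set their own error term. The lack of calls is therefore no evidence that the members did not differ.

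Of the 12 most abundant members, 11 had a ratio below 0, and Mir487b, at 0.38, had one above. Mir127 had a log2 ratio of -0.61 (-0.69 to -0.54; adjusted p = 3.54e-55, exact binomial test), Mir541 of -0.56 (-0.73 to -0.39) and Mir379 of -0.47 (-0.64 to -0.30). Mir433 gave -0.61 and Mir382 gave -0.44, and both were called. Mir411 (-0.14, adjusted p = 0.0528) and Mir154 (-0.24, adjusted p = 0.0502) missed the threshold of the exact binomial test, and Mir431 (-0.33) was not called either. In all, 8 of the 12 were called higher in replicate 1 and 1, Mir487b, higher in replicate 2.

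Among members with at least 100 reads together, the lowest ratios were those of Mir370, Mir134, Mir299a, Mir337 and Mir409. Mir370 (109618258 to 109618336, in an intron of Rian) had 65 and 38 reads, which gave a log2 ratio of -1.57 (-2.19 to -0.97). The other 4 lay between -1.21 (Mir134) and -0.97 (Mir409), and all 5 were called higher in replicate 1. Lower ratios among tested members occurred only below 100 reads, led by Mir376b (-2.26), Mir376c (-2.04), Mir667 (-1.61) and Mir668 (-1.58), with wider intervals. Mir376c, for example, had an interval of -2.83 to -1.30.

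A few members went the other way. Mir493 had 9 and 53 reads in replicates 1 and 2, and its log2 ratio was 1.76 (0.73 to 2.96; adjusted p = 0.000447, exact binomial test). Mir487b gave 0.38 (0.06 to 0.72; adjusted p = 0.0371, exact binomial test), and its call was lost when all genes with a read were tested (adjusted p = 0.0626). Both had an adjusted p of 0.846 or more in the exact test of edgeR. Mir540 (-0.02) and Mir369 (0.05), at intermediate levels, were close to no difference.

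**Figure D3:**
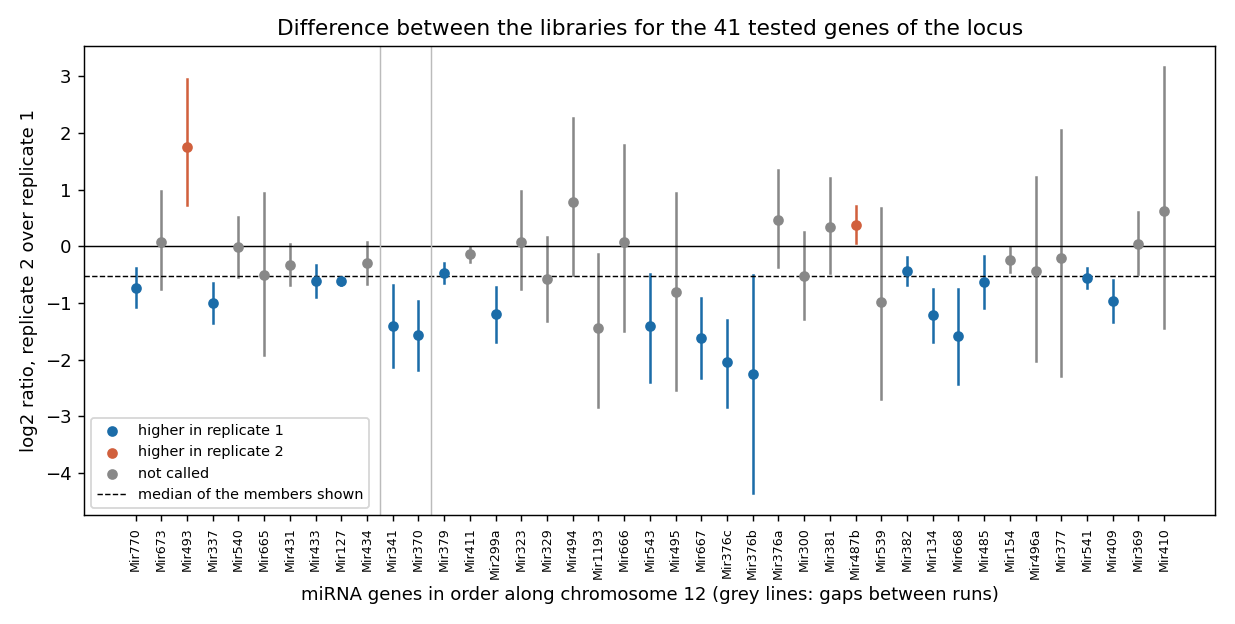
The log2 ratio, replicate 2 over replicate 1, with its 95% exact interval (vertical axis) for the 41 tested genes of the locus in order along the chromosome (horizontal axis), coloured by the call of the exact binomial test. The dashed line is the median of -0.52, 31 of the 41 points lie below 0, and the blue genes called higher in replicate 1 occur in all 3 runs that hold reads.

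The lower level in replicate 2 appeared in each band of depth. Of tested members, those with 10 reads or more, that had fewer than 100 reads together, 6 of 22 were called higher in replicate 1, against 14 of 157 other tested genes. From 100 to under 1000 reads, the counts were 9 of 15 members and 14 of 96 other genes, with median ratios of -0.61 and 0.25. Above that, the 4 members with 1000 reads or more were Mir127, Mir411, Mir541 and Mir379. Of these 3 were called higher in replicate 1, against 25 of 67 other genes from 1000 to under 10000 reads. The medians were -0.52 and 0.03. Higher in replicate 2, from the lowest band to the highest, were 1 of 22, 1 of 15 and 0 of 4 members. Among the other genes, these counts were 22 of 157, 40 of 96 and 29 of 67. These bands describe the pair of libraries and were not tested.

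**Figure D4:**
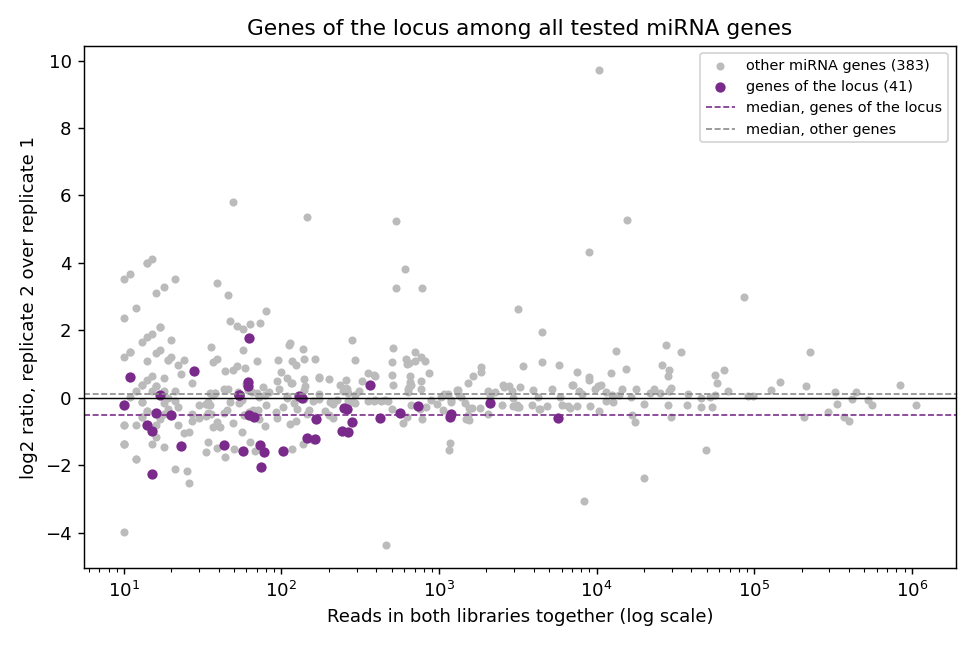
The log2 ratio, replicate 2 over replicate 1 (vertical axis), against reads in both libraries together (horizontal axis, logarithmic) for 383 other tested miRNA genes in grey and the 41 of the locus in purple. The dashed lines mark the medians of 0.11 for the other genes and -0.52 for the locus, whose points lie mostly below 0 at every depth while staying inside the range of the other genes.

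Likeness of the libraries, position and base composition are given as descriptions. Across the 30 detected members, log2 levels in the libraries correlated with Pearson's r = 0.937 and Spearman's rho = 0.868. Both were lower than over 291 other detected genes, with r = 0.970 and rho = 0.962. Distance from the Meg3 start had a rho of -0.034 with the mean level and of 0.0149 with the ratio. GC content of the hairpins ranged from 29.1% (Mir376c) to 72.3% (Mir3072). Its rho was 0.00223 with the mean level and -0.249 with the ratio, beside -0.148 with the ratio over 291 other detected genes. The points share 2 libraries and lie in 1 domain, so these values are descriptions without a test. Among tested members at or under the median GC content, 8 of 23 were called higher in replicate 1, with a median ratio of -0.44, and among those above it 10 of 18, with -0.67. In the same ranges of GC content, 22 of 138 other tested genes (15.9%) and 53 of 245 (21.6%) were called higher in replicate 1, with medians of 0.20 and 0.08.

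Some markers of cell types differed between the libraries too. The red blood cell miRNAs Mir144 and Mir451a summed to 7165 CPM in replicate 1 and 1219 CPM in replicate 2, in the direction of the locus. The brain list of 7 genes went the other way, from 36.2 to 75.5 CPM, nearly all of it Mir137 (109 and 396 reads). The other 6 genes of that list, the 3 Mir124a and 3 Mir9 genes, had 0 to 2 reads, but all share 22-base stretches, so their counts do not show how much brain-type RNA was present. The heart muscle list of 6 genes summed to 10784 and 14686 CPM, but only part of it rose. Mir208a had 5184 and 9154 CPM, and Mir499 had 5559 and 5487 CPM. At low level, Mir1a-1 and Mir1a-2 were lower in replicate 2, and Mir133a-1 and Mir133a-2 higher. The endothelial Mir126a had 85244 and 109823 CPM. The smooth muscle genes summed to 45692 and 40641 CPM, with Mir143 at 43725 and 38639 CPM and Mir145a at 1968 and 2001 CPM. Of all these markers, the exact test of edgeR called only Mir144 (adjusted p = 0.0283). Mir451a had an adjusted p of 0.216 in that test. The part of these cell types in the lower level of the locus was not tested. In whole tissue, fewer cells of a type and less RNA per cell cannot be told apart.

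Because the members lie on 1 strand downstream of the Meg3 start, the promoter at that start is shown (RefSeq, GRCm38.p6, chr12:109540746-109541045, plus strand), from which transcription of the noncoding genes is thought to run. Capitals mark TGACGTCA, the cAMP response element, searched on both strands.
Meg3 promoter: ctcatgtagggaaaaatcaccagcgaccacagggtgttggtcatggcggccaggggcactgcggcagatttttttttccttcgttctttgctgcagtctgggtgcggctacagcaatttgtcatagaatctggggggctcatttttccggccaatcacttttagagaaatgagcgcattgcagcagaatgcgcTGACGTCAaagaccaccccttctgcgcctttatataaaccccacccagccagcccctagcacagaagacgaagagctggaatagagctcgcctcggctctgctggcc
The element occurs 1 time, at base 194 of the window, which has 250 bases before the start and 50 from it on. It was found in 1.79% of 32851 promoter windows of the same length. TATAAA, the TATA box, searched on both strands, occurs 2 times, overlapping, with the first at base 222, and is in 13.6% of the windows. Windows at Dlk1, Rian and a later Meg3 start held neither, and that at Dio3 held TATAAA 1 time, at base 220. The Mirg window of that table lies inside Mirg as placed above and is not used. A match is a description of letters and not of binding.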

How the data were processed

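Small RNA libraries (size range under 30 per the labels, from total RNA) of 2 heart samples were analysed. The deposited counts are whole reads per miRNA gene, not normalized, 1 table per library; per the labels and the deposited text the build was mm10 and the annotation GENCODE M21, with aligner, counter and trimming not given in the sources used here. Unmapped reads made up 19.4% and 34.3%, reads mapped to several places 40.7% and 32.5% and reads outside miRNA genes 7.79% and 6.27% of all reads in replicates 1 and 2, and stayed out of all totals. The strand column with more reads was taken as sense.

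Counts were scaled to CPM. Genes whose reads summed to 10 or more over the pair were tested by an exact binomial test against the library totals (SciPy 1.17.1, Benjamini-Hochberg, threshold 0.05); a count of 0 became 0.5 in ratios. edgeR 4.0.16 gave TMM factors, the common dispersion and an alternative exact test, and DESeq2 1.42.0 size factors only. Both tests were tried on simulated data. Intervals are Wilson for shares and exact (Clopper-Pearson) for ratios. Names, positions and hairpins came from GENCODE M21, and mature sequences and promoters from RefSeq.

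The members and lists were chosen with earlier results of these data known. Genes were named by rule: the 12 most abundant, the ends of each run, 8 known members, the 5 highest and 5 lowest ratios with at least 100 reads, and members higher in replicate 2; others with few or no reads were named after their values were seen. The alternatives are in the closing section.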

Additional observations from a re-analysis of the deposited data

How the results depend on the processing

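Of 61 alternative values, 9 moved and 0 changed sign. The other 52 stayed within the criteria used (a count within 1.5 times, a share within 1 SD, a ratio within a 95% counting interval), which say little about stability: with 2 libraries, leaving out either keeps a mean within 1 SD by construction, leaving out the 2 Gm genes, which have no reads, cannot move shares or ratios, and the interval used for the median ratio ran from -1.28 to 0.26. The members called higher in replicate 1 numbered 18, and from 14 (at least 100 reads) to 21 (TMM or DESeq2 size factors) otherwise, but 0 by the exact test of edgeR, which also called 0 of the 2 members higher in replicate 2. With TMM or DESeq2 size factors Mir411, Mir154 and Mir1193 were added. The 2 members higher in replicate 2 became 1 when all genes with at least 1 read were tested (Mir487b lost) and 1 with at least 100 reads (Mir493 left untested). The median ratio of -0.52 stayed between -0.56 and -0.49, and the ratio of summed reads, an alternative chosen after seeing the data, was -0.43 without Mir127, outside its counting interval.

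The share of the locus was 0.248% in the column for either strand, which has a smaller total, and 0.0579% of all reads. In that column 16 members had no read in place of 9, because overlapping genes lose theirs. With a minimum of 100 reads in each library, 13 members were detected in place of 30. Leaving out a library left the share between 0.160% and 0.226%, Mir127 between 35.6% and 38.6% of the locus and the Mir379 run between 48.5% and 52.1%. Between-library tests need both libraries and have no such value. Depth limits members under 10 reads, whose ratios were not tested.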
